A study of Homo sapiens with 20 samples.

Results

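RNA sequencing was used to measure the response of JinB8 cells to plate-bound antibodies against CD3 and CD28. JinB8 is a CD47-deficient mutant of Jurkat, a human T cell leukemia line. The comparison covers all 10 JinB8 libraries of the 20 in the series, the other 10 being the matched libraries of WT Jurkat cells. The 6 activated JinB8 libraries are CD3+CD28 and CD3+CD28+TSP1, the latter with thrombospondin-1 added, each at 1, 3 and 6 h. The 4 unactivated JinB8 libraries are TSP1 alone at 1, 3 and 6 h and untreated cells at 1 h. All cells, controls included, were plated in serum-free medium that contained hydrocortisone, insulin and transferrin. Each condition was sequenced once, and nothing in the sample descriptions says whether libraries came from separate cultures. The p-values therefore measure the spread between these libraries, which may be technical. Both groups pool libraries with and without TSP1, so this spread can also hold effects of TSP1. At 3 and 6 h the only unactivated library was given TSP1, so there the CD3+CD28 library differs from it in TSP1 as well as in activation. JinB8 is a single mutant line, so the loss of CD47 and other differences between the lines cannot be told apart.

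The T cell receptor signals through its CD3 chains, and CD28 adds a costimulatory signal. Together they activate the ERK, NFAT and NF-kB pathways. Within minutes to hours this is known to induce immediate-early transcription factors such as FOS, JUN, the EGR family and the NR4A family, together with feedback inhibitors of ERK such as DUSP phosphatases and Sprouty proteins, and the surface protein CD69, followed by IL2 and the IL-2 receptor chain IL2RA. CD47 is a receptor for thrombospondin-1. CD69, EGR1 and FOS served as markers of activation.

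To show the genes behind the comparison, the 170 bases before the start of EGR1 and of FOS are printed below from RefSeq, build GRCh38.p14, both on the plus strand. They lie at chr5:138465309-138465478 and chr14:75278658-75278827. Capitals mark matches to the CArG box, the element bound by serum response factor, which is CC, a run of A or T bases, and GG, and reads the same way on both strands. The other motifs, searched on both strands of the 250 bases before each start, were the cyclic AMP response element TGACGTCA, its core TGACG, the AP-1 site TGANTCA with C or G at N, and the EGR sites GCGTGGGCG and GCGGGGGCG.
EGR1: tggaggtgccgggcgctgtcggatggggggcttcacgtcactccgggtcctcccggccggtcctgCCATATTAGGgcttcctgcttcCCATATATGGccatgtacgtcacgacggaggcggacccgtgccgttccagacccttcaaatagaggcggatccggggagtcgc
FOS: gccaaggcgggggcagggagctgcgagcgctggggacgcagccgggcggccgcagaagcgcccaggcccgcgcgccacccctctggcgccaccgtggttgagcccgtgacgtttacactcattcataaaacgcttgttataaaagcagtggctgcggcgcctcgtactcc
The EGR1 window held 2 CArG boxes, beginning 105 and 83 bases before the start. Of 35116 promoter windows of 250 bases, 407 (1.16%) held such a box. The core TGACG, found in 21.2% of these windows and contained in TGACGTCA, began 64 bases before the FOS start, and the EGR1 window held 2 on the minus strand. The other motifs had no match in either window, nor had the CArG box in that of FOS, which says only that these letters are not there. The sequences describe the genes and were not tested against the counts.

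Library totals in JinB8 ranged from 16107921 to 28525524 counts, and levels are given as CPM, the counts scaled to library size with TMM factors. A gene with no count could still be at 0.102 to 0.155 CPM (3 counts), depending on the library, for counting error only, and values near this are called close to the limit. CD47 mRNA was between 124 and 165 CPM in every JinB8 library and between 251 and 371 CPM in every WT library, so the lines did not overlap. JinB8 libraries held the T cell genes CD3D (230 to 532 CPM), CD3E (142 to 197 CPM), CD247 (66.4 to 121 CPM) and LCK (447 to 704 CPM). TRAC, the constant region of the receptor alpha chain, was at 15 to 28.9 CPM in JinB8 and 122 to 299 CPM in WT. CD28 was at 202 to 264 CPM in JinB8 and 24.6 to 65.4 CPM in WT. TRAC and CD28 did not overlap between the lines in any library, and their part in the results was not tested.

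The JinB8 library CD3+CD28+TSP1 at 3 h stood apart. It had the lowest total, 16107921 counts, the lowest share of ribosomal protein genes, 5.35% against 7.02% to 7.80% in the other 9, and POLR2A, the large subunit of RNA polymerase II, at 406 CPM against 63.2 to 114 CPM. Counts of the gene lists at 3 h and the genes that lead there are given with and without it, a choice made after seeing the data. The cytokine list, the surface list and the markers of other cell types are given without such counts. The first principal component, 41.3% of the variance, ordered the libraries by time, and the second, 21.0%, held this library at its extreme. Library total, mitochondrial share, share of the 10 most abundant genes and ribosomal protein share did not differ detectably between activated and unactivated JinB8 libraries (exact permutation test within time points, two-sided, 54 arrangements, smallest possible p = 0.0185, p from 0.333 to 0.741, adjusted over 4 measures 0.716 to 0.741).

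The question of the main comparison was which genes differ between activated and unactivated JinB8 cells at matched times. FOS, CD69 and EGR1 did not pass the test in JinB8 cells, though EGR1 passed without the low-count filter. Across 16861 genes, 0 (0%) passed the threshold, an adjusted p of 0.05 by edgeR with time as a term. The smallest adjusted p was 0.656 by edgeR. At an unadjusted p of 0.05, 295 genes passed, 139 higher (0.824%) and 156 lower (0.925%). DESeq2 and limma voom with quantile normalization also called 0 genes, with 191 and 329 at an unadjusted p of 0.05. The precision was a median SE of 0.118 on the log2 scale, and for 97.7% of genes 2 SE were below 1 on that scale. A call needs more than 2 SE, as p-values are adjusted over all genes. VGF, at 1.13 with the low-count filter, was not called. The comparison averages over 1, 3 and 6 h, so it sets no bound on a response limited to 1 time. EGR1 had 0.45 over all times and 1.36 at 3 h. Without the low-count filter the smallest adjusted p by edgeR fell to 3.67e-121, while the log2 fold change of EGR1 stayed at 0.45. Why the p-values fell so far was not tested. In that fit 79 genes were called. These held EGR1 (0.45, adjusted p = 0.0153 by edgeR), VGF (1.13, adjusted p = 0.00101), THBS1 (1.64, adjusted p = 4.15e-06, and with the filter 1.62, or 0.40 to 2.74 on leaving out each library, the lowest without TSP1 at 6 h) and the 7SL pseudogenes RN7SL674P and RN7SL444P, but not FOS or CD69 (adjusted p = 0.998 for each).

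FOS, a subunit of the AP-1 transcription factor (GRCh38 chromosome 14, 75278826 to 75282230), was at like levels in activated and unactivated JinB8 cells. At 1 h it was at 54.5 CPM in untreated and 46.6 CPM in TSP1 cells, and at 54.1 and 55.9 CPM in CD3+CD28 and CD3+CD28+TSP1 cells. At 3 h it was at 29.9 CPM in TSP1 cells and at 32.5 and 29.4 CPM in the activated ones. At 6 h it was at 28.9 CPM against 24.6 and 26.0 CPM. Activated and unactivated libraries overlapped at 1 and 3 h, and at 6 h the activated ones were the lower. The log2 fold change was 0.01 (SE 0.0777, 2 SE either side from -0.15 to 0.17, adjusted p = 0.999 by edgeR). In WT cells the same comparison gave 1.44 (adjusted p = 0.00567 by edgeR), or 2.71-fold.

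CD69, an early surface activation antigen of lymphocytes (chromosome 12, 9752486 to 9760901), was lower at later times in both groups. At 1 h it was at 54.6 and 59.7 CPM without activation and 68.3 and 55.9 CPM with it. At 3 h the values were 27.4 CPM without and 34.9 and 22.0 CPM with activation, and at 6 h 6.87 CPM without and 8.17 and 5.42 CPM with it. The activated libraries lay on both sides of the unactivated one at 3 and 6 h. The log2 fold change was 0.07 (SE 0.141, from -0.21 to 0.35, adjusted p = 0.999 by edgeR). In WT cells it was 2.00 (adjusted p = 0.00831 by edgeR), with 457 and 359 CPM in activated against 104 and 113 CPM in unactivated libraries at 1 h.

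EGR1, a zinc finger transcription factor (chromosome 5, 138465479 to 138469303), had its widest gap between the groups at 3 h. At 1 h it was at 56.1 and 58.9 CPM in unactivated and 62.3 and 64.8 CPM in activated JinB8 libraries. At 3 h it was at 14.4 CPM in TSP1 cells, 28.4 CPM in CD3+CD28 cells and 44.3 CPM in CD3+CD28+TSP1 cells. At 6 h it was at 4.62 CPM without and 4.15 and 5.26 CPM with activation. Over all times the log2 fold change was 0.45 (SE 0.220, adjusted p = 0.999 by edgeR). It ranged from 0.10 to 0.58 on leaving out each library, the lowest without TSP1 at 3 h, the only unactivated library of that time. At 3 h it was 1.36 (SE 0.264, adjusted p = 0.703 by edgeR), and DESeq2, with 1.36, called it (adjusted p = 0.00708). This contrast sets 2 libraries against 1, the spread being taken from all JinB8 libraries. Without the library that stood apart it was 0.99 (adjusted p = 0.993 by edgeR), and without CD3+CD28 at 3 h, which leaves that library alone in the activated group, it was 1.65 (adjusted p = 0.00271 by edgeR), with 3609 genes called, EGR3 among them (1.56, adjusted p = 0.0101). Without the low-count filter 291 genes were called at 3 h, and EGR1 (adjusted p = 3.22e-07), EGR3 (adjusted p = 0.00709), PHLDB1 (adjusted p = 0.00341) and VGF (adjusted p = 0.0166) were among them, all by edgeR. In WT cells EGR1 rose by 1.76 on the log2 scale over all times (adjusted p = 0.00796 by edgeR).

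**Figure D1:**
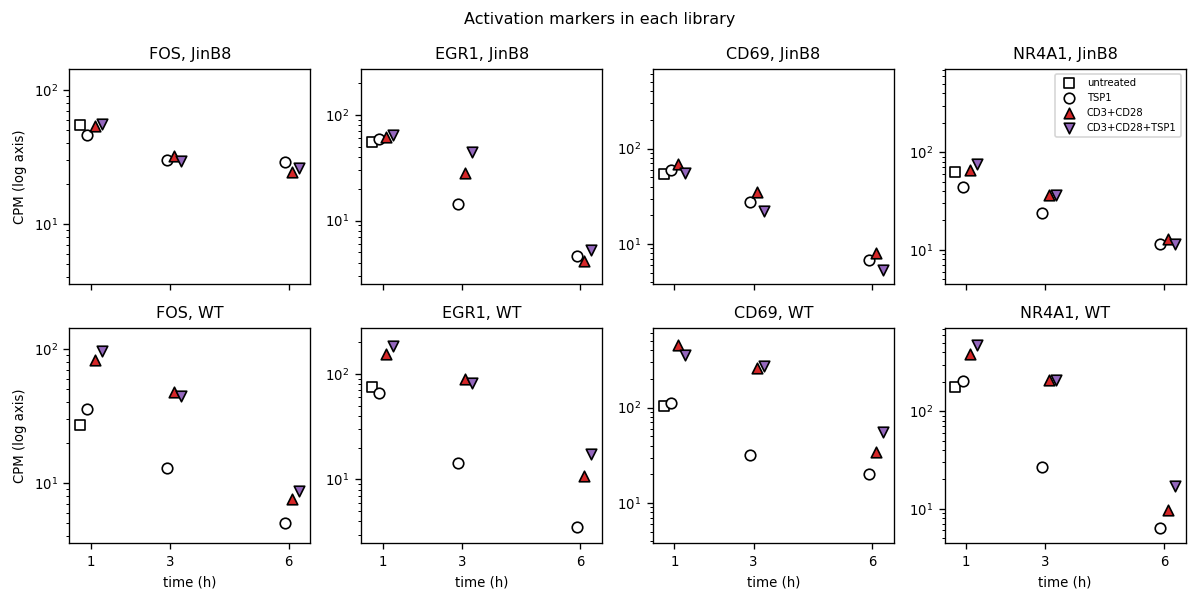
Level of FOS, EGR1, CD69 and NR4A1 in each library (CPM, log axis) against time in JinB8 (top) and WT cells (bottom), with a symbol for each treatment and each point 1 library. In JinB8 the activated libraries lie close to the unactivated ones except at 3 h for EGR1 and at 1 and 3 h for NR4A1. In WT the activated libraries lie above the unactivated ones at each time, for CD69 at 1 h at 359 and 457 CPM against 104 and 113 CPM.

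To see whether the response differs between the lines, the activation terms were compared in a model over all 20 libraries. Across 17927 genes, 1 (0.00558%) passed, FOS, whose log2 response in JinB8 minus that in WT was -1.40 (SE 0.179, from -1.76 to -1.05, adjusted p = 0.00618 by edgeR). CD69 had -1.92 (SE 0.319) and SCG2, a secretogranin, -1.46 (SE 0.244), each with an adjusted p of 0.0772 by edgeR, and both were called by DESeq2 (adjusted p = 0.00178 and 4.74e-05). DESeq2 called 15 genes and limma voom with quantile normalization 6, all with a lower response in JinB8. Both sets held FOS, CD69, SCG2, DUSP2, CDKN1A and CSRNP1. EGR1 had -1.32 (SE 0.330, adjusted p = 0.551 by edgeR). Without the low-count filter 218 genes were called, 155 with a lower and 63 with a higher response in JinB8 (smallest adjusted p = 4.73e-189 by edgeR). Among the lower were FOS, CD69, EGR1, SCG2 and TNF. FOS was not called without the JinB8 TSP1 library at 6 h (-1.32, adjusted p = 0.0618) or with a time effect shared by both lines (-1.30, adjusted p = 0.978).

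In WT cells, 29 genes were called, 27 of them higher (0.163% of 16528 tested). The 29 became 163 by DESeq2, 12 to 112 on leaving out each library and 0 with no time term. The share of counts on 7SL RNA copies was higher with activation in WT at 1 and 3 h, but not in both activated libraries at 6 h. It was 12% and 11.2% in activated against 9.29% and 7% in unactivated libraries at 1 h, 10.9% and 11.8% against 7.74% at 3 h, and 12.8% and 11.5% against 11.7% at 6 h. Protein-coding genes held 76.9% and 76.7% against 80.4% and 81.9% at 1 h, 79.6% and 77.9% against 81.8% at 3 h, and 78.2% and 79.1% against 79.0% at 6 h. In JinB8 the 7SL share of the activated libraries overlapped or lay on both sides of that of the unactivated ones at 1 and 3 h, and at 6 h it was 11.6% and 9.75% against 11.6%. The part of these shares in the WT response and in the difference between the lines was not tested. Of those 27, 26 were tested in JinB8. Their median log2 fold change was 1.22 in WT over the 27, and 0.18 in JinB8 over the 26, of which 23 were positive. All 27 had a smaller response in JinB8 than in WT, though these genes were chosen by their rise in WT, so this direction is partly set by the choice. WT genes with the largest responses included DUSP2, a phosphatase acting on ERK (1.85 in WT, 0.24 in JinB8), EGR2 (1.80 and 0.50), NR4A1 (1.64 and 0.37), DUSP5 (1.49 and 0.38) and CDKN1A, a cell cycle inhibitor (1.33 and 0.28).

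**Figure D2:**
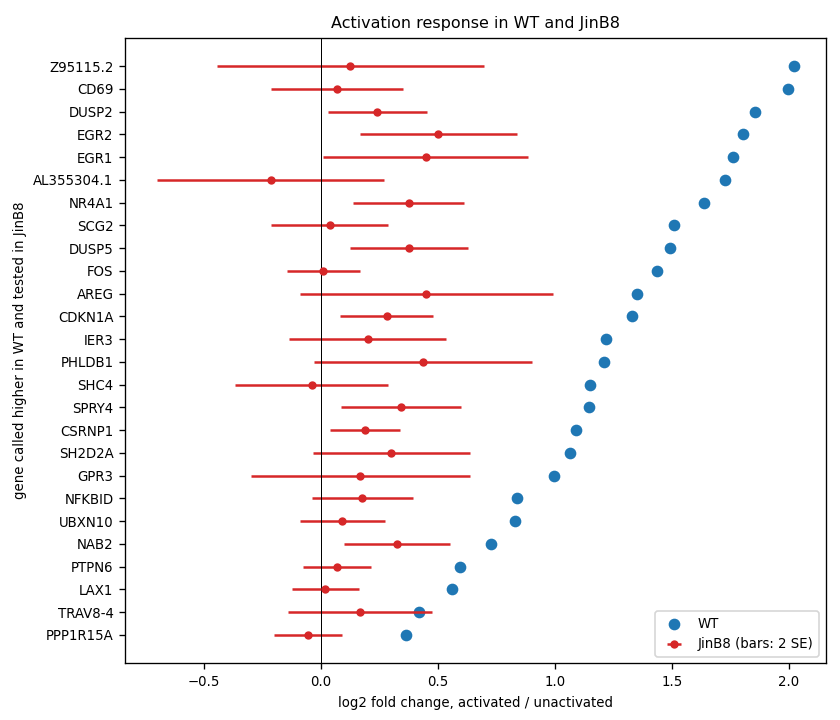
Log2 fold change of activated against unactivated cells for the genes called higher in WT and tested in JinB8, with WT as blue points and JinB8 as red points and bars of 2 SE. The WT points reach 2.02, while the highest JinB8 point is at 0.50, and for TRAV8-4 the WT point lies within the JinB8 bar.

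Over all times and all 10 libraries, no immediate-early transcription factor was called in JinB8 cells by edgeR with the low-count filter. Of 23 genes tested in JinB8, 19 had a positive log2 fold change and 4 did not. At the unadjusted threshold 3 were higher at an unadjusted p under 0.05, against 0.824% of all genes, and the median log2 fold change was 0.17 against -0.01 over all genes. These 3 were NR4A1 (0.37, SE 0.118), EGR2 (0.50, SE 0.168) and EGR3 (0.59, SE 0.213), each with an adjusted p of 0.999 by edgeR. On leaving out each library EGR3 ranged from 0.30 to 0.78, NR4A1 from 0.28 to 0.49 and EGR2 from 0.36 to 0.69, each lowest without TSP1 at 3 h. In WT the median over the same 23 genes was 0.69, with 5 called, against 0.163% of all genes called higher. In the comparison of the lines 10 of 23 had an unadjusted p under 0.05 with a lower response in JinB8, against 2.44% of all genes tested, and this list holds FOS and EGR1, which are also markers.

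NR4A1, an orphan nuclear receptor induced by T cell receptor signaling, was at 44.3 and 63.0 CPM in unactivated and 66.2 and 75.3 CPM in activated JinB8 cells at 1 h. At 3 h it was at 24.0 CPM against 36.4 and 36.7 CPM, and at 6 h at 11.4 CPM against 12.9 and 11.5 CPM. It was higher in the activated libraries at all 3 time points, with the gap closing at 6 h. EGR2 was at 14.7 and 16.2 CPM against 24.2 and 22.0 CPM at 1 h, 2.31 CPM against 4.72 and 4.03 CPM at 3 h, and 1.59 CPM against 1.06 and 1.51 CPM at 6 h. EGR2 was thus higher with activation at 1 and 3 h and lower at 6 h. FOSB (0.13), IER3 (0.20) and MAFF (0.08) were among members with a larger p.

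At 3 h, 6 of the 23 immediate-early genes had an unadjusted p under 0.05 and were higher, against 3.08% of all genes. They were EGR1, EGR2, EGR3, EGR4, NR4A1 and IER2. Without the library that stood apart, which leaves 1 library against 1 at 3 h, these 6 with IER3 and KLF10 made 8 of 23, against 1.59% of all genes, and 0 were called. The log2 fold changes were then 1.04 for EGR2, 2.44 for EGR4, 0.61 for NR4A1 and 0.74 for IER2, against 0.95, 2.17, 0.63 and 0.52 with it. EGR3 was at 1.89 CPM in TSP1 cells and 4.67 and 5.47 CPM in activated cells, a log2 fold change of 1.44 (SE 0.289), and 1.32 without the library that stood apart. The median of the list was 0.33 at 3 h, or 0.21 without that library, with 0.10 for 1 h and 0.07 for 6 h. No gene was called for a change of the response with time by edgeR with the low-count filter (0 of 16861, 241 at an unadjusted p of 0.05). DESeq2 called 11, and edgeR without that filter 204. EGR4 was at 0.588 CPM in TSP1 cells and 3.17 and 2.07 CPM in activated cells at 3 h. IER2, another immediate-early gene, was at 60.7 CPM against 100 and 71.2 CPM.

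The ERK feedback inhibitors, mainly DUSP phosphatases, Sprouty and SPRED proteins and the EGR corepressors NAB1 and NAB2, had a similar median. Of 19 tested, 0 were called and 6 were higher at an unadjusted p under 0.05, against 0.824% of all genes. The median was 0.19, and 11 of the 19 were positive. The 6 were DUSP5, PHLDA1, NAB2, SPRY4, NAB1 and DUSP2. DUSP5 had a log2 fold change of 0.38 (SE 0.126), and its CPM was 41.4 and 35.9 without against 50.4 and 54.1 with activation at 1 h, 21.8 against 40.3 and 29.2 at 3 h, and 14.6 against 13.6 and 15.3 at 6 h. PHLDA1 had 0.38 (SE 0.129, or 0.21 without TSP1 at 3 h), with 14.7 CPM against 22.1 and 28.5 CPM at 3 h and 11.2 against 12 and 11.8 CPM at 6 h. NAB2 had 0.32 (SE 0.113). NAB2 was at 92.4 and 74.3 CPM without and 97.9 and 109 CPM with activation at 1 h, 76.0 against 120 and 79.5 CPM at 3 h, and 18.5 against 23.4 and 21.5 CPM at 6 h, so it was higher with activation in each time point. DUSP2 was at 101 and 82.6 CPM without and 104 and 110 CPM with activation at 1 h, 46.0 against 72.1 and 49.4 CPM at 3 h, and 43.8 against 47.5 and 48.3 CPM at 6 h. EGR3, EGR4, IER2, IER3, KLF10, NAB2, NAB1, SPRY4 and DUSP2 were named after their values were seen. At 3 h without the library that stood apart, 5 of 18 tested were higher at such a p, against 1.59% of all genes, with a median of 0.18. With that library 3 of 19 were higher, against 3.08% of all genes, with a median of 0.17. In WT the median was 0.33 and 4 were called, against 0.163% of all genes called higher. In the comparison of the lines 7 of 19 had a lower response in JinB8 at a p under 0.05, against 2.44% of all genes.

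**Figure D3:**
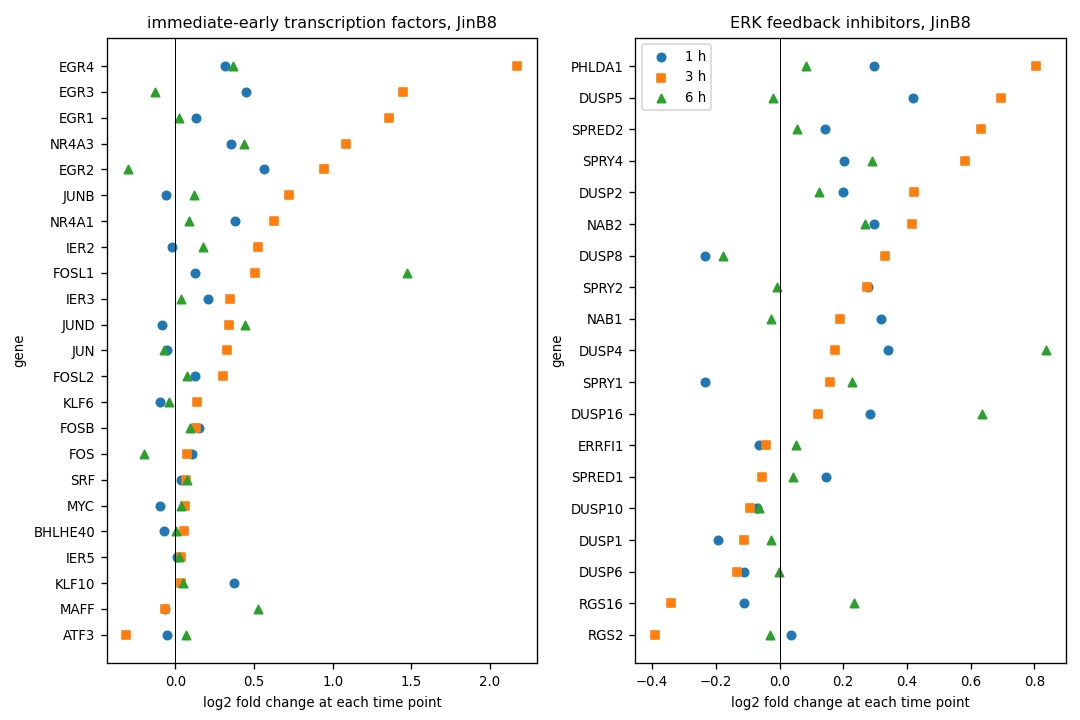
Log2 fold change of activated against unactivated JinB8 cells at 1, 3 and 6 h for the immediate-early transcription factors (left) and the ERK feedback inhibitors (right), ordered by the value at 3 h, with all 10 libraries. EGR4, EGR3 and EGR1 lie farthest to the right at 3 h, at 2.17, 1.44 and 1.36, and EGR1 is near 0 at 6 h.

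No cytokine, chemokine or surface marker was called in JinB8 cells over all times. Of 12 cytokine genes tested, 1 was lower at an unadjusted p under 0.05, against 0.925% of all genes, and 0 were higher. It was CCL1, a chemokine, with a log2 fold change of -0.91 (SE 0.406), with levels of 0.0816 to 0.925 CPM, the lowest being close to the limit. IL13 had 0.72 (SE 0.346), or 0.40 without TSP1 at 3 h. At 3 h alone IL13 had 1.51, and 0.73 without the library that stood apart, where it was at 3.05 CPM against 0.751 to 1.24 CPM in the other activated libraries. TNF was at 10.7 to 26.4 CPM in JinB8 and 0.598 to 3.35 CPM in WT libraries. In JinB8 it was at 22.7 and 23.1 CPM without and 22.3 and 26.4 CPM with activation at 1 h, and had a log2 fold change of 0.01 in JinB8 and 0.95 in WT. The difference between the lines for TNF was -0.96 (adjusted p = 0.158 by edgeR), and DESeq2 called it (adjusted p = 0.0134). IL2 reached at most 0.252 CPM in any JinB8 library. IL2RA was at 0.0839 CPM in TSP1 cells at 3 h and 1.37 and 0.723 CPM in activated cells. At 6 h it was at 0.220 CPM against 0.177 and 0.122 CPM, and at 1 h at 0.136 and 0.245 CPM against 0.522 and 0.289 CPM, and it did not pass the low-count filter. Among 14 surface genes, 0 had an unadjusted p under 0.05, and PDCD1 (PD-1) had the smallest p (0.41, SE 0.223, from 0.26 to 0.61 on leaving out each library), and CD40LG had -0.12 (SE 0.0804). TIGIT was at most 0.176 CPM and was not tested.

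Leaving aside the markers of other cell types, the remaining lists had medians between -0.05 and 0.05 in JinB8 over all times. NF-kB genes had 2 of 19 higher at a p under 0.05, against 0.824% of all genes, TRAF1 (0.24, SE 0.0936) and RELB (0.30, SE 0.134). Of the 49 genes of the receptor complex and proximal signaling, 1 was lower at a p under 0.05, against 0.925% of all genes. It was THEMIS, a regulator of T cell receptor signaling (-0.15, SE 0.0687). SH2D2A, an adaptor of T cell signaling, had 0.30 (SE 0.167, from 0.18 to 0.44 on leaving out each library). Among mRNA decay factors TOB2 had 0.19 (SE 0.0845) and ZFP36, which destabilises cytokine mRNAs, had 0.22 (SE 0.152), or 0.04 without TSP1 at 3 h. Of the quiescence genes TXNIP, a negative regulator of glucose uptake, had -0.24 (SE 0.0868), and KLF2 had 0.20 (SE 0.106). Of the interferon-stimulated genes IFIT5 had -0.21 (SE 0.0835) and IFI27 0.60 (SE 0.29). Of the death receptors FAS had -0.25 (SE 0.0943) and TNFRSF10B had 0.10 (SE 0.0566). Genes of glycolysis and amino acid uptake, ribosome biogenesis, sterol synthesis, the cell cycle, heat shock and NFAT had none at this p over all times, and those nearest to it included SLC7A11 (-0.13), SLC7A5 (0.19), WDR12 (-0.10), MYBBP1A (0.11), MVK (-0.12), CCNE2 (-0.13), CDK1 (-0.15), HSPH1 (-0.09), HSPA5 (0.11), NFATC4 (-0.13) and CABIN1 (0.14), all on the log2 scale. Without TSP1 at 3 h, SLC7A5 was at 0.05, CABIN1 at 0.03, TOB2 at 0.11, THEMIS at -0.08, IFIT5 at -0.11 and FAS at -0.16. At 3 h, 3 of 13 mRNA decay factors and 3 of 17 NFAT genes were higher at an unadjusted p under 0.05, against 3.08% of all genes. Without the library that stood apart these became 2 of 13 and 1 of 17, against 1.59%, and the median of the mRNA decay factors went from 0.18 to -0.05. The other lists of this paragraph had at most 1 gene higher at 3 h, and at most 2 without that library. No gene of these lists was called over all times.

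**Figure D4:**
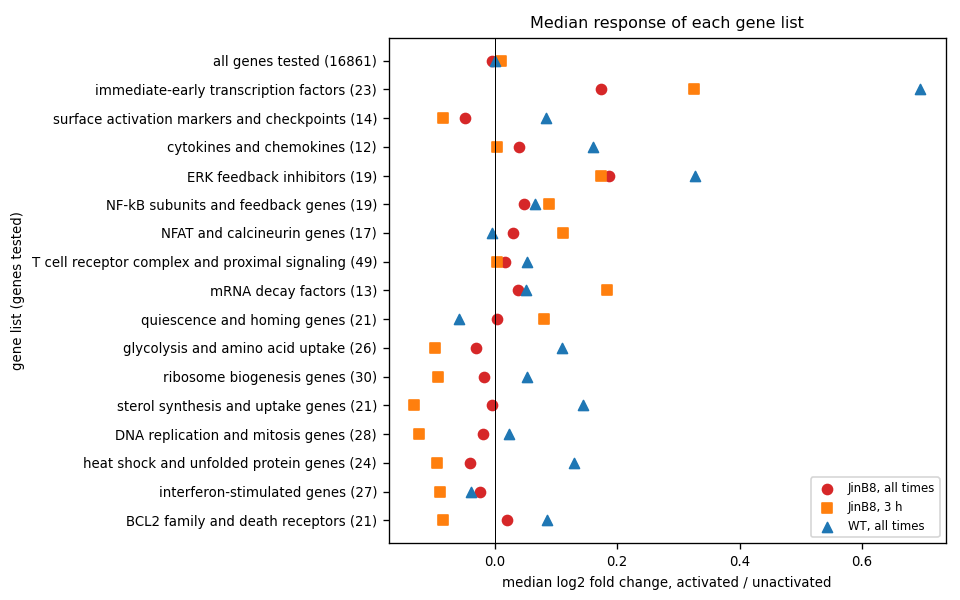
Median log2 fold change of activated against unactivated cells for each gene list, with the number of genes tested in brackets, in JinB8 over all times, JinB8 at 3 h (all 3 libraries of that time) and WT over all times, the markers of other cell types not being plotted. Over all times in JinB8 the immediate-early genes are at 0.17 and the ERK feedback inhibitors at 0.19, the other plotted lists between -0.05 and 0.05. At 3 h the ERK feedback inhibitors are at 0.17 and the mRNA decay factors at 0.18, or 0.18 and -0.05 without the library that stood apart, and in WT the first 2 lists are at 0.69 and 0.33.

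Genes that the study names for Jurkat cells did not pass the test in JinB8. The study names several of them for differences between the lines, which this test does not address. By PCR at 6 h in another medium, it reported MCL1 as increased and CD40LG as reduced in activated CD47-deficient cells. The values here are averages over 1, 3 and 6 h, with and without TSP1, and are not the same measure. MYC (-0.01), MYCN (-0.02), MYCL (-0.04), MCL1 (0.04), CCR9 (-0.14), PREX1 (-0.04) and RAG1 (-0.14) had intervals of 2 SE that held 0, as did CD47 (-0.08, SE 0.0610). MYC was between 48.3 and 64.6 CPM in the 4 libraries at 1 h and between 173 and 181 CPM in the 3 at 6 h, where the activated libraries were the higher. Among genes with a mean of at least 1 log2 CPM and the same sign at all times, the smallest p belonged to RN7SL674P and RN7SL444P (-1.28 and -2.95), pseudogenes of the 7SL RNA, whose counts are uncertain because the copies are nearly identical. With the CD3+CD28 libraries alone as the activated group 3 genes were called, RN7SL342P, RN7SL444P and RN7SL573P, all of this family. The 8 higher genes chosen by the same rule were NR4A1 and PHLDA1, given above, VGF, a secreted neuropeptide precursor (1.13, SE 0.272), KLF16 (0.38, SE 0.0995), TNFRSF12A (0.49, SE 0.157), COL6A3 (0.47, or 0.27 without TSP1 at 3 h), AC073611.1 (0.37) and AC018630.4 (0.59). None of them was called, other than VGF without the low-count filter. VGF was at 2.10 CPM in TSP1 cells at 3 h and at 6.52 and 6.09 CPM in activated ones, and at 0.705 against 1.72 and 2.00 CPM at 6 h. Its log2 fold change at 3 h was 1.61, and 1.65 without the library that stood apart. At 1 h VGF was at 1.19 and 0.489 CPM against 1.20 and 1.36 CPM. The lower genes included the 7SL pseudogenes RN7SL674P and RN7SL444P, ARRDC4 (-0.29), ANXA4 (-0.32), CCNI2 (-0.38), HTATSF1P2 (-0.43) and TXNRD1, thioredoxin reductase (-0.28). These were also not called, with 2 exceptions. Both 7SL pseudogenes were called without the low-count filter, and RN7SL444P with the CD3+CD28 libraries alone as the activated group. TXNRD1 was at 308 CPM in TSP1 cells and at 243 and 234 CPM in activated cells at 6 h, and at 291 against 235 and 178 CPM at 3 h. PHLDB1, chosen after its values were seen, was at 4.78 CPM in TSP1 cells and 12.3 and 12.5 CPM in activated cells at 3 h (log2 fold change 1.40, SE 0.228), 1.37 without the library that stood apart.

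At 6 h the activated JinB8 libraries held more counts of some genes known from connective tissue cells than the other JinB8 libraries. THBS1, which encodes thrombospondin-1, was at 9.28 and 9.70 CPM in CD3+CD28 and CD3+CD28+TSP1 cells at 6 h and at 0.163 to 1.37 CPM in the other 8 JinB8 libraries. It had a log2 fold change of 5.70 at 6 h (SE 1.08, adjusted p = 0.951 by edgeR), and DESeq2 called it (adjusted p = 1.16e-04), as did edgeR without the low-count filter for THBS1, HBG1 and HBG2. COL1A2 was at 26 and 40 counts in these 2 libraries and at 0 or 1 in the others. The same genes were present in 7 of 10 WT libraries, at a summed 12.2 to 19.7 CPM over 9 genes chosen after their values were seen, and at 0.587 to 1.04 CPM in WT TSP1 at 1 h and both activated WT libraries at 6 h. Summed over the 9 genes, JinB8 was at 14.5 and 16.7 CPM in activated cells at 6 h and at 0.412 to 2.01 CPM elsewhere. HBG1 and HBG2, the fetal globin genes, which are near-identical, had the opposite order in JinB8 at 6 h. There HBG2 was at 0.0442 and 0.0408 CPM in activated and 3.41 CPM in TSP1 cells. In the 7 WT libraries with the higher sums HBG2 ranged from 0.0431 to 3.89 CPM. In the other WT libraries it ranged from 1.10 to 4.38 CPM, so the ranges overlapped. DESeq2 called 16 genes at 6 h, 5 higher and 11 lower, which included THBS1, HBG1, HBG2 and near-identical copies of the 7SL and U1 RNAs. HBG1, HBG2 and RNU1-4 had the smallest p for a response that varied with time (adjusted p = 1.00 by edgeR for each). DESeq2 called each of them for this (adjusted p = 5.75e-07, 1.31e-08 and 1.59e-05). Among markers of other cell types, fibroblast genes summed to 7.71 to 12.2 CPM in JinB8 libraries, endothelial genes, chiefly PECAM1, to 94.1 to 121 CPM, and B cell, monocyte and epithelial genes to at most 13.7 CPM. Of the 9 genes, 3 (COL1A2, COL3A1 and DCN) are also fibroblast markers. In these bulk libraries fewer cells of a type and less RNA per cell cannot be told apart. The part of these genes in the results was not tested.

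**Figure D5:**
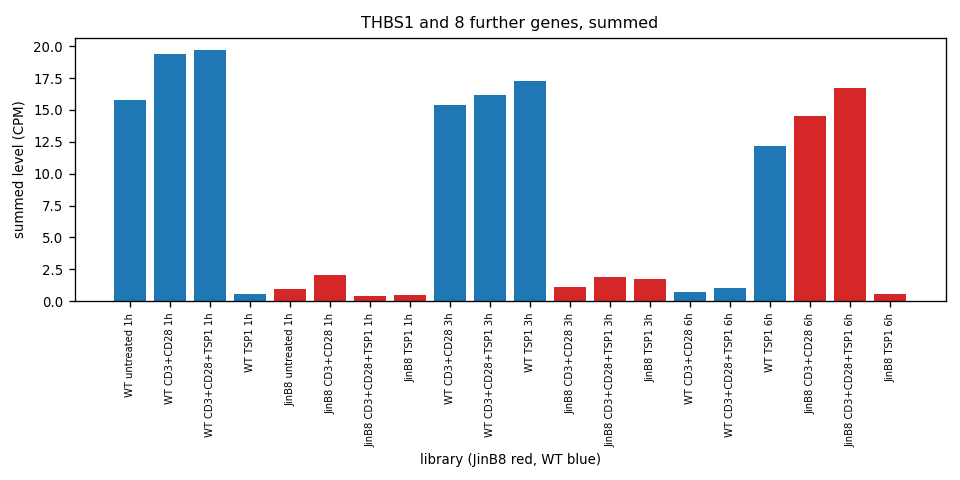
Summed level in CPM of THBS1, COL1A2, COL3A1, CAV1, MMP3, TIMP3, GREM1, DKK1 and DCN in each library, JinB8 in red and WT in blue. The activated JinB8 libraries at 6 h stand at 14.5 and 16.7 CPM, the other 8 JinB8 libraries at most at 2.01 CPM.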

How the data were processed

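The authors deposited expected counts per gene from RSEM 1.3.3 on GENCODE version 36, without normalization, after trimming by cutadapt 1.18 and mapping to GRCh38 by STAR 2.4.2a (per the labels and the study's methods). The table also holds 2 columns of no sample of the series, which were not used, and the isoform table was not used here. Expected counts were rounded for edgeR 4.0.16 and DESeq2 1.42.0 (R 4.3.3, limma 3.58.1). Genes were kept by filterByExpr by group (minimum count 10, minimum total 15), scaled by TMM and tested by edgeR's quasi-likelihood test with a time term, Benjamini-Hochberg adjustment over all genes and a threshold of 0.05. Positions come from GENCODE version 44. The test of activation in JinB8 over all times was tried on simulated data, and the other tests were not. Named genes were the 3 markers, 8 higher and 8 lower with the smallest p among those above 1 log2 CPM with 1 sign at all times, the top members of each list, genes the study names and the top 3 genes for line and time differences. Members and lists were chosen with earlier results of these data known. Alternatives were other tools, filters and scalings, subsets of libraries and leaving out each library. Wherever no library quality weights are named, limma voom was run with quantile normalization in place of TMM, so tool and scaling changed together. A few genes chosen by the naming rule are left out of the text.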

Additional observations from a re-analysis of the deposited data

Results flagged for a closer look

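Of 146 groups of values over JinB8 libraries examined for a value far from the rest, 6 held one, and chance gives about 1 in 20 groups. The library CD3+CD28+TSP1 at 3 h had a total of 16107921 counts against 21945149 to 24989562 in the other activated libraries, a ribosomal protein share of 5.35% against 7.02% to 7.60%, and IL13 at 3.05 CPM against 0.751 to 1.24 CPM. The TSP1 library at 1 h had SH2D2A at 3.43 CPM against 5.71 to 6.07 CPM in the other unactivated libraries. The TSP1 library at 6 h had NAB2 at 18.5 CPM against 74.3 to 92.4 CPM in the unactivated libraries at 1 and 3 h, and the activated libraries at 6 h were also low, at 23.4 and 21.5 CPM. The same library had TIGIT at 0.176 CPM against 0.0339 to 0.042 CPM, near the limit of detection. The response of FOS to activation differed between the lines by a log2 difference of -1.40, JinB8 minus WT. The causes were not tested.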

How the results depend on the processing

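The number of genes called for activation in JinB8 stayed at 0 under most alternatives. It was 79 without the low-count filter, 3 with the CD3+CD28 libraries alone as the activated group and 1 with limma voom and library quality weights (RN7SL390P), and 0 to 1 when each library was left out. At 3 h it was 1 by DESeq2 (EGR1), 1 by limma voom (AC005538.2), 291 without the filter and 0 to 3609 on leaving out libraries, the highest without CD3+CD28 at 3 h. For a response that varied with time it was 11 by DESeq2, 204 without the filter and 0 to 1365 on leaving out libraries, the highest again without CD3+CD28 at 3 h. This test could not be fitted without TSP1 at 3 h or at 6 h. In WT the 29 became 163 by DESeq2, 425 without the filter and 12 to 112 on leaving out libraries, the highest without TSP1 at 6 h. The line difference, 1 gene, became 15 by DESeq2, 6 by limma voom with quantile normalization and 6 by limma voom with library quality weights. It was 218 without the filter, 0 with a time effect shared by the lines and 0 to 10 on leaving out libraries, 0 without JinB8 TSP1 at 6 h. Fits without the filter gave far smaller p-values by edgeR. The smallest adjusted p was 3.67e-121 for activation in JinB8, 1.52e-26 at 3 h and 4.09e-57 for a response that varied with time. It was 1.95e-170 in WT and 4.73e-189 for the line difference. Apart from the stated construction, the causes were not tested.

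Here the time point is the replicate block, and replicate numbers mark no shared culture. With no replicate block (no time term), 0 genes were called in JinB8 (98 at an unadjusted p of 0.05 by edgeR) and 0 in WT (223). In that fit these log2 fold changes took the other sign: CD69 -0.20, FOS -0.12, TNFRSF10B -0.062, SLC7A11 0.054, WDR12 0.010, MVK 0.016, MCL1 -0.099, MYCN 0.051, MYC 0.20, TNF -0.11 and HBG2 0.024.

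Other sign changes, all of genes not called by edgeR, were as follows. With limma voom and quantile normalization they were MYC 0.016, TNF -4.3e-06, HBG2 0.075 and HBG1 0.16. With limma voom and quality weights they were PREX1 0.0019, MYC 0.034, HBG2 0.14 and HBG1 0.13. With a TSP1 term they were CD69 -0.031 and SCG2 -0.018, and with libraries given TSP1 alone CD69 -0.23, MCL1 -0.079, PREX1 0.043, MYC 0.086 and SCG2 -0.030. With CD3+CD28 and unactivated libraries it was TNF -0.033. At 1 h alone they were CCNE2 0.010, CDK1 0.016, SLC7A11 0.0065, SLC7A5 -0.043, ZFP36 -0.029, HBG2 0.79 and HBG1 0.51, and at 3 and 6 h alone FOS -0.063, MCL1 -0.038, PREX1 0.035, MYC 0.051, TNF -0.041 and RNU1-4 -0.19. On leaving out each library the ranges were CD69 -0.021 to 0.14, FOS -0.045 to 0.10, PREX1 -0.075 to 0.020, MYCL -0.11 to 0.022, MYCN -0.057 to 0.016, MYC -0.067 to 0.075, TNF -0.048 to 0.048, SCG2 -0.043 to 0.12, HBG2 -1.09 to 0.58, HBG1 -0.96 to 0.69 and CD69 at 3 h -0.29 to 0.36. Of 67 genes examined over all times in JinB8, 41 moved by over 1.5 times or changed sign on leaving out 1 library, 21 of them with their smallest value without TSP1 at 3 h, and none was called in these fits.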
